A study of Mus musculus with 5 samples.

Results

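Type 1 conventional dendritic cells of mouse dermis were examined in droplet-based transcriptomes of leukocytes (live cells positive for CD45, the pan-leukocyte surface marker) from the skin dermis of C57BL/6 mice. Of 6162 cells kept, 115 were chosen as this type. They were chosen by UMI counts (unique molecular identifiers, 1 per captured transcript) of 12 genes, called the gate below. A cell needed at least 5 UMIs of Cd74, the invariant chain that marks antigen-presenting cells. It also needed at least 1 UMI of Xcr1 or Clec9a, or at least 3 of Irf8. At most 2 UMIs of Cd209a and Mgl2 together, at most 1 of C1qa, C1qb and C1qc together, and none of Siglech, Cd79a or Epcam were allowed. Since measured values chose the cells, the levels of these 12 genes are given as a description and enter no test.

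There were 5 libraries, 1 for each label and without replicates. P45, P50, P63 and P80 are 4 time points of telogen, the resting phase of the hair cycle, read here as postnatal days. P50_Depil5D carries the label of day 50 together with Depil5D, read here as 5 days of depilation, the removal of hair, and the labels do not say whether day 50 is that of depilation or of collection. All groups share the strain, the dermal dissection, the digestion to single cells, the CD45 sort and the droplet platform, and the labels name no sex, transgene, number of animals or pooling. The gate found 75 cells in P45, 11 cells in P50 and 25 cells in P50_Depil5D, but only 3 in P63 and 1 in P80. With 1 library per group, age and depilation cannot be told apart from the library, and no test of either was possible.

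Type 1 dendritic cells depend on the transcription factors IRF8, BATF3 and ID2. They take up material from dead cells and present it on MHC class I to CD8 T cells, a route called cross-presentation, and they bear XCR1, the receptor for the chemokine XCL1 made by NK and CD8 T cells. CLEC9A binds actin exposed by dead cells. In skin they form the minor, CD103-bearing branch of dermal dendritic cells beside the more abundant type 2 cells, and after maturation they move to draining lymph nodes through CCR7.

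Xcr1 and Clec9a belong to the gate, so the choice of cells set their high levels. Naaa, Ppt1 and Ifi205 lie outside it and were higher in the type 1 cells, taken as a class, than in other cells rich in Cd74. The sequences upstream of the starts of these 5 genes are shown. They come from RefSeq on build GRCm38.p6, are read 5′ to 3′ on the strand of the gene, and end just before the RefSeq start, or before the annotated gene body where that lies further upstream. Xcr1 is at chr9:123862030-123862279 on the minus strand, Clec9a at chr6:129408612-129408861 on the plus strand, Naaa at chr5:92278182-92278431 on the minus strand, Ppt1 at chr4:122835977-122836226 on the plus strand and Ifi205 at chr1:174031811-174032005 on the minus strand. Capitals mark the match to GAAA, any 2 bases, GAAA, the core of elements bound by interferon regulatory factors and called the IRF motif below.
Xcr1: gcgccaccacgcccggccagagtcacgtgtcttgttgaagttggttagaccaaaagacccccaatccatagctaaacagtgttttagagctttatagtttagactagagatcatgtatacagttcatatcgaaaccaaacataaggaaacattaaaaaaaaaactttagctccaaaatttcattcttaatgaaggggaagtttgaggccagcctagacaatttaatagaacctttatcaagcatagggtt
Clec9a: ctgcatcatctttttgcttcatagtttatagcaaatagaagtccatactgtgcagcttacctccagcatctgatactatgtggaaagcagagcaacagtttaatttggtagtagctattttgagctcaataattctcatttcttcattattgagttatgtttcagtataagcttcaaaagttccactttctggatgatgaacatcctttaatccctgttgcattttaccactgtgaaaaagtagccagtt
Naaa: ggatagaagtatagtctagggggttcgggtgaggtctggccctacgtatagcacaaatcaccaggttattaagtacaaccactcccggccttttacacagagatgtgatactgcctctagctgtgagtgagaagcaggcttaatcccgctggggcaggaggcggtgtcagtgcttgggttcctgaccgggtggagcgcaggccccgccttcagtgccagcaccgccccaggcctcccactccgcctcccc
Ppt1: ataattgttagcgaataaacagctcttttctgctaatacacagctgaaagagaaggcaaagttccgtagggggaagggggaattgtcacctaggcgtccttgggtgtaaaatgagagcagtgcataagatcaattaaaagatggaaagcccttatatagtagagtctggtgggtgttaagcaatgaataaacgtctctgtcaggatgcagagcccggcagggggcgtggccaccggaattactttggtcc
Ifi205: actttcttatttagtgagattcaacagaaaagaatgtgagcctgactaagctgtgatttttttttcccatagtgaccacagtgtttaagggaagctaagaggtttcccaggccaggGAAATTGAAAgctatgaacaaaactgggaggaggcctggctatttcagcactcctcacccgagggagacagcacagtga
Both strands were searched for the IRF motif and for TGANTCA, the AP-1 element that BATF factors also recognise. Over the 250 bases before each start, the IRF motif was present in 974 of 32817 RefSeq promoters (2.97%) and TGANTCA in 2216 (6.75%). Of 30 symbols listed as type 1 identity genes, 18 had a promoter in the table. The IRF motif was present in 4 of these 18 (22.2%), namely Ifi205, Tlr11, Jaml and Ece1, and TGANTCA in 1 (5.56%), namely Havcr2. A listed gene counted if any of its promoters matched, whereas the shares over RefSeq are per promoter. The shares are therefore unlike, and no enrichment was tested. Jaml was missing under that symbol from the genes counted, and Tlr11 gave only 4 UMIs in type 1 cells. The Xcr1, Clec9a, Naaa and Ppt1 windows held no match to these letters. The Ifi205 window leaves out the 55 bases nearest the RefSeq start, which lie inside the gene in GENCODE.

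The libraries held 1032621 to 7491878 UMIs in all, and the cells kept had medians of 1236 to 2550 UMIs. The 115 type 1 cells together held 390493 UMIs (P45 279742, P50 35754, P63 3280, P80 2336 and P50_Depil5D 69381), with a median of 2897 per cell. The 2601 other cells with at least 10 Cd74 UMIs, the comparison class called other Cd74-high cells, had a median of 2395. Of the cells kept, 834 had a barcode that occurred in another library, and 2 of these were type 1 cells. A share of ribosomal protein pseudogenes, out of the UMIs of these pseudogenes and their parent genes, under 0.5 of the library's median was found in 1078 cells, of which 8 were type 1 cells. At least 2 UMIs of the T cell genes Cd3d, Cd3e and Cd3g were present in 14 type 1 cells, 13 of them in P45, and these are called doublet candidates below. Scrublet marked 21 of the 6162 cells and none of the 115, a share so low that the caller cannot be said to have worked, so doublets were not removed.

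The gate genes read as follows. Xcr1 gave 70 UMIs in 57 of the 115 cells and Clec9a 28 UMIs in 26, and 9 cells had both. Pooled levels, in UMIs per 1000000 UMIs of the class (CPM), were 179 for Xcr1, 71.7 for Clec9a and 1329 for Irf8 in type 1 cells. In other Cd74-high cells they were 4.46, 2.49 and 51.9. Most members of the first kind stood at the threshold, as 55 of the 74 cells with Xcr1 or Clec9a had exactly 1 such UMI. The other 41 cells entered by Irf8 alone, 18 of them with exactly 3 UMIs.

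Of the 5 given markers, Naaa and Id2 were not part of the gate. Naaa encodes N-acylethanolamine acid amidase, a lysosomal enzyme and a standard mark of this subset. It was found in 100 of 115 type 1 cells (87.0%, exact 95% binomial interval 79.4 to 92.5) and in 1081 of 2601 other Cd74-high cells (41.6%). Thinned to 1000 UMIs per cell, these shares were 61.1% and 22%, and 0.259% in 386 keratinocytes, which should lack the gene (median depth 5308 UMIs before thinning). Id2, a repressor of E proteins needed for the subset, was found in 79 of 115 type 1 cells (68.7%) against 24.2% of other Cd74-high cells and 20.5% of keratinocytes. Of the 28 identity genes in the table other than gate genes, at least 3 were detected in 107 of 115 cells (93.0%), in 873 of 2601 other Cd74-high cells (33.6%) and in 129 of 386 keratinocytes (33.4%). The share was 74.3% (78 of 105) among other Cd74-high cells with at least 1 UMI each of Epcam and Cd207, as in Langerhans cells. Both markers were thus found in more of the type 1 cells than of the other classes named, but 15 of the 115 had no Naaa UMI and 36 no Id2 UMI. Among the 115 cells, 1 had no identity gene at all.

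At the limits of the gate, cells with exactly 3 Irf8 UMIs and neither Xcr1 nor Clec9a (18 cells, inside) had 1102 CPM of Naaa and 18386 of Cst3. Those with exactly 2 (27 cells, outside) had 773 and 21495, and those with exactly 1 (35 cells, outside) had 530 and 10218. Cells that met the rest of the gate but had 3 or 4 UMIs of Cd209a and Mgl2 (9 cells, outside) had 1082 CPM of Naaa, all those with at least 3 (18 cells, outside) had 687, and those with 1 or 2 (22 cells, inside) had 983. With at least 2 C1q UMIs (9 cells, outside) Naaa was at 318 CPM and the macrophage gene Lyz2 at 9825, against 1397 and 3502 with exactly 1 (14 cells, inside).

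The first comparison asked which genes outside the gate set type 1 cells apart from other Cd74-high cells. UMIs were summed per class within each library with at least 10 type 1 cells, which were P45, P50 and P50_Depil5D, and tested with edgeR's quasi-likelihood test with the library as a block. Type 1 cells had higher levels of 20 of 22 genes known for their subset and 9 of 22 cell cycle genes, while of 21 class I presentation genes 4 were higher and 4 lower. They had lower levels of the genes of type 2 dendritic cells and macrophages, whose marked cells the gate had excluded. Of 5380 genes tested, 536 (9.96%) passed a false discovery rate (FDR) of 0.05, with 180 higher (3.35%) and 356 lower (6.62%). The cells were chosen by other genes of the same cells, and nothing says that the libraries came from separate animals. The p-values therefore cover only these 3 libraries, with each gene's spread drawn toward that of the other genes tested. They do not show that the cells form a type.

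Of the 28 identity genes in the table, 22 passed the filter on low counts. Of these, 20 were higher, 0 were lower and 2 (Havcr2 and Qpct) were not called, with a median log2 fold change of 2.05 against -0.11 over all genes tested. This list names genes known for the subset, and the cells were picked by genes known for the subset, so the direction is no independent evidence. The count was 11 of 19 without P45, 22 of 24 without P50, 16 of 21 without P50_Depil5D and 12 of 22 by DESeq2.

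Naaa stood at 1205 CPM in P45, 615 in P50 and 1254 in P50_Depil5D in type 1 cells, and at 263, 204 and 215 in other Cd74-high cells. The groups did not overlap, and edgeR gave a log2 fold change of 1.97 ± 0.24 (SE, 3 libraries, FDR 4.02e-14). Ppt1, a lysosomal thioesterase that removes palmitate from proteins, was at 511, 391.6 and 418 CPM against 72.4, 43.2 and 51.4 (log2 fold change 2.79 ± 0.30, edgeR FDR 1.37e-18). Again every type 1 value lay above every comparison value. Wdfy4, a protein required for cross-presentation of cell-borne antigen, was at 193, 112 and 101 CPM against 26.5, 18.3 and 14.1 (2.70 ± 0.38, edgeR FDR 1.30e-10).

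Id2 was at 651, 615 and 591 CPM against 154, 144 and 192 (log2 fold change 1.74 ± 0.26, edgeR FDR 1.13e-09). Here too no type 1 library overlapped the comparison class. Batf3, the AP-1 family factor that maintains the lineage, differed less, with 143, 196 and 187 CPM against 80.02, 62.97 and 43.1 (1.20 ± 0.35, edgeR FDR 0.00844). Cd24a, a surface glycoprotein of the subset, was at 386, 308 and 317 CPM against 43.8, 62.2 and 108 (2.26 ± 0.31, edgeR FDR 1.65e-11). It was not particular to them, being found in 53.9% of type 1 cells and 57.1% of the cells with Epcam and Cd207. Itgae, which encodes the CD103 integrin chain, rested on few UMIs, 22 in 19 of the 115 cells. It stood at 53.6, 27.97 and 86.5 CPM against 21.9, 5.13 and 11.6 (1.64 ± 0.50, edgeR FDR 0.013). Tlr3, the sensor of double-stranded RNA used by this subset, gave 5 UMIs in type 1 cells and was too low to test. Cadm1, an adhesion molecule of the subset, was called (2.14 ± 0.40, edgeR FDR 4.66e-06) although it was at 0 in the 11 cells of P50. It was found in 33.9% of type 1 cells and 31.4% of the cells with Epcam and Cd207 (12.4% and 10.6% thinned to 1000 UMIs). Keratinocytes, which were deeper, had it in 26.4% of cells (4.92% thinned).

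**Figure D1:**
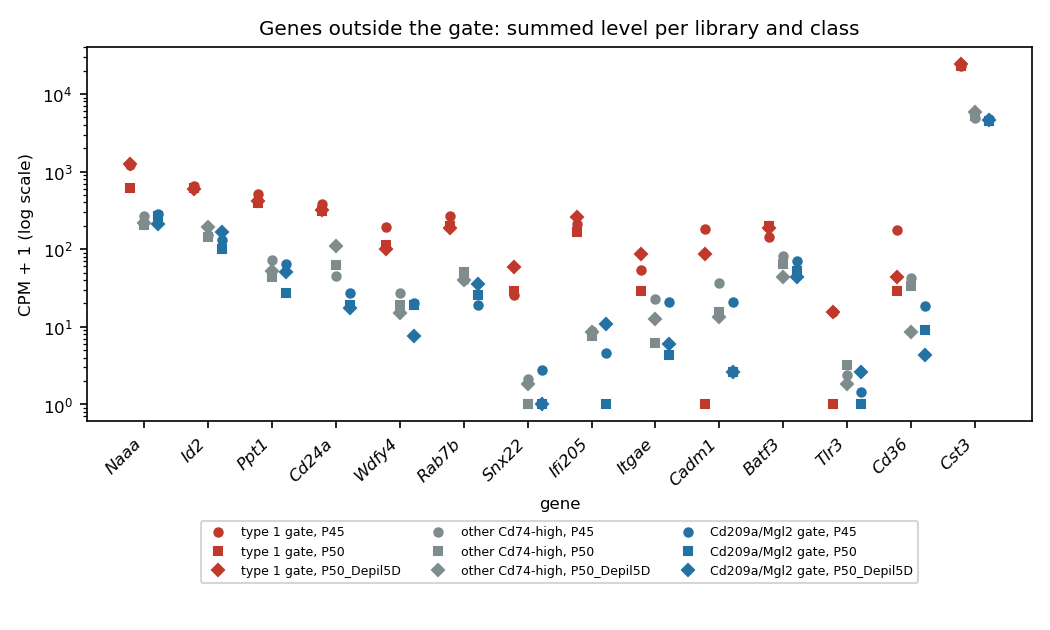
Levels of 14 genes outside the gate, in CPM + 1 on a log axis, each point being the summed UMIs of 1 class in 1 library (circle P45, square P50, diamond P50_Depil5D). Type 1 cells lie above both comparison classes in all 3 libraries for Naaa, Id2, Ppt1, Cd24a, Wdfy4, Rab7b, Snx22, Ifi205, Itgae, Batf3 and Cst3, while Cadm1, Tlr3 and Cd36 each have a type 1 library at or below a comparison value.

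By the naming rule, which asks for at least 50 CPM, the largest rise was that of Ifi205, with 211, 168 and 259 CPM in type 1 cells against 7.84, 6.59 and 7.46 (log2 fold change 4.67 ± 0.40, edgeR FDR 7.99e-29). It is an interferon-inducible gene of the HIN200 family and one of the identity genes, and was found in 41 of 115 type 1 cells and 40 of 2601 other Cd74-high cells. ENSMUSG00000054203 (Ifi205) lies on chromosome 1 from 174011998 to 174031810. Mnda, a gene of the same family, rose by 3.25 ± 0.35 on the log2 scale (edgeR FDR 3.06e-18), from 19.4, 27.1 and 13.3 CPM to 179, 336 and 173. Reads of near-identical family members could have been divided between them by the authors' counting, so the separate values are uncertain, and the same holds for the identity genes Cxx1a (3.11) and Cxx1b (3.56).

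Further genes passed the threshold. Pglyrp1, a secreted peptidoglycan-binding protein, stood at 172, 55.9 and 173 CPM against 15.7, 0 and 7.46 (log2 fold change 3.76 ± 0.44, edgeR FDR 2.13e-15). Tnni2, which encodes a muscle troponin chain, stood at 554, 531 and 432 CPM against 70.1, 49.1 and 50.5 (2.95 ± 0.29, edgeR FDR 7.43e-22) and was found in 72 of the 115 cells. A530099J19Rik (3.61), 6430531B16Rik (3.44), Proser2 (3.38), Cystm1 (3.27) and Kctd14 (2.98) also rose, each below 200 CPM in every library. Proser2 was not called without P45 (log2 fold change 2.36, edgeR FDR 0.074). Cst3, cystatin C, an inhibitor of cysteine proteases that is abundant in dendritic cells, was at 22732, 23074 and 24315 CPM against 4855, 5273 and 5801 (1.92 ± 0.21, edgeR FDR 3.51e-17), and was present in every one of the 115 cells.

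**Figure D2:**
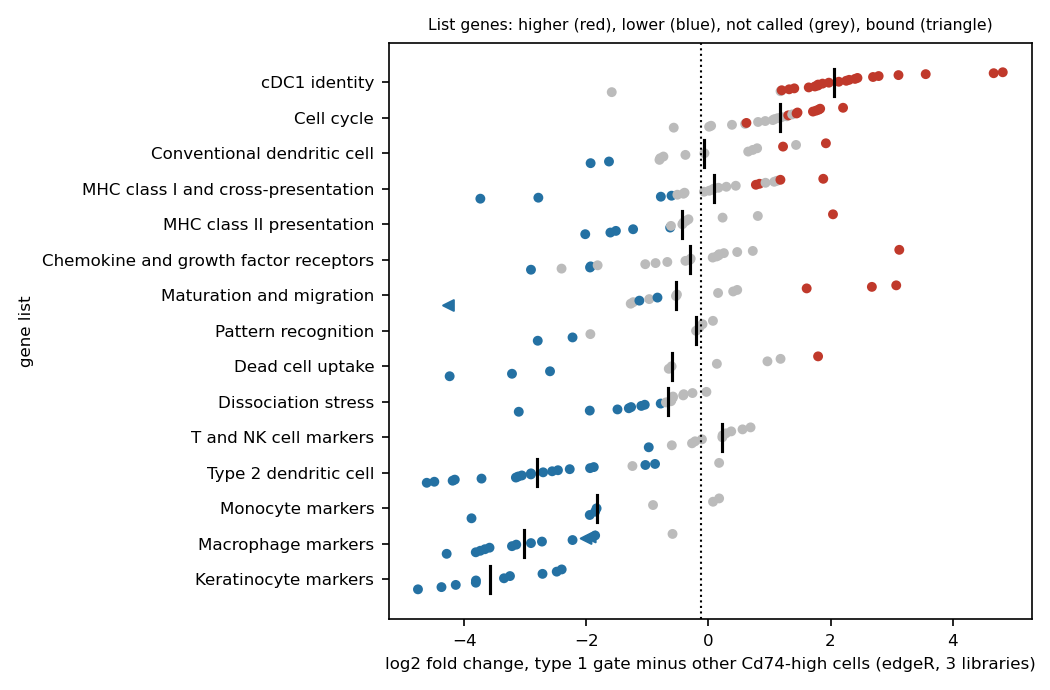
Log2 fold change of each tested gene of 15 lists, type 1 cells minus other Cd74-high cells, with the list median (bar) and the median of all genes tested (dotted line, -0.11). The identity and cell cycle lists lie to the right, with medians of 2.05 and 1.17, and triangles mark genes with 0 UMIs in type 1 cells at their lower bound.

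The genes of MHC class I presentation did not move as a group, with 4 of 21 tested higher and 4 lower (median 0.09). Those higher were the immunoproteasome subunits Psmb8 and Psmb9, which cut proteins into peptides for class I, and Psme1 and Psme2, the chains of the PA28 activator of the proteasome. Psmb10, the other catalytic immunoproteasome subunit, was not called (log2 fold change 0.29, edgeR FDR 0.779). Psmb9 was at 318, 531 and 519 CPM against 105, 113 and 88.7 (log2 fold change 1.88 ± 0.28, edgeR FDR 8.32e-10). Psme1 was at 515, 643 and 937 CPM against 230, 316 and 252 (1.18 ± 0.25, edgeR FDR 5.34e-05). Psmb8 (0.84 ± 0.24) and Psme2 (0.78 ± 0.27) rose less. For all 4 the type 1 values lay above every comparison value. How common this was over all genes tested is not given here. The count of higher genes in this list was 2 without P45, 3 without P50, 1 without P50_Depil5D and 2 by DESeq2. The 4 that fell were Cybb, the NADPH oxidase chain gp91phox (10.7, 27.97 and 0 CPM against 140, 141 and 90.3, log2 fold change -3.74 ± 0.59, edgeR FDR 2.03e-08), Ctsc (-2.79), H2-K1 (-0.78) and B2m (-0.60), the latter 2 with overlapping library values. Reads of H2-K1 and its class I relatives may have been divided between genes. The peptide transporter genes Tap1 (0.94, edgeR FDR 0.143) and Tap2 (1.08, edgeR FDR 0.159) did not pass.

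Of 13 MHC class II presentation genes, 1 was higher and 5 were lower (median -0.43). The count of lower genes was 8 of 12 without P45, 3 of 13 without P50_Depil5D and 3 of 13 by DESeq2. H2-Ob, a chain of the H2-O inhibitor of peptide loading, was at 193, 196 and 159 CPM against 49.4, 25.6 and 35.6 (log2 fold change 2.04 ± 0.35, edgeR FDR 2.12e-07). Ctss, the cathepsin that trims the invariant chain, was at 322, 391.6 and 591 CPM against 966, 1088 and 1119 (-1.52 ± 0.24, edgeR FDR 1.95e-08). Ifi30, a lysosomal thiol reductase, fell by 1.61 on the log2 scale and the asparaginyl endopeptidase Lgmn had a log2 fold change of -2.02. The class II chains themselves differed little, and of these H2-Eb1 passed (-0.63 ± 0.21, edgeR FDR 0.0283) while H2-Aa (-0.41) and H2-Ab1 (-0.43) did not. The comparison class was required to have 10 Cd74 UMIs and the type 1 cells 5, but only 2 type 1 cells had fewer than 10.

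Among the genes that were lower, the naming rule gave Ccl17, Lilr4b, Il1rn, Retnla, Ear2, Apod, Mt2 and Fam25c. Ccl17, a chemokine of type 2 and mature dendritic cells, had 0 UMIs in the type 1 cells of the 3 libraries and 74.95, 458 and 67.9 CPM in the comparison class. Against a floor of 3 counts over the group it was at least 19.2-fold lower. Mt2, a metallothionein, was at 42.9, 27.97 and 0 CPM against 868, 828 and 1360 (log2 fold change -5.04 ± 0.36, edgeR FDR 1.27e-40). Retnla, a secreted product of alternatively activated myeloid cells, was at 35.8, 0 and 0 CPM against 1033, 1454 and 312 (-5.38 ± 0.40, edgeR FDR 1.37e-38). The interleukin-1 receptor antagonist Il1rn gave 1 UMI in type 1 cells and 846 in the comparison class. Fam25c was not called without P45 (edgeR FDR 0.0943).

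Of 20 type 2 dendritic cell genes other than Cd209a and Mgl2, 18 were lower and 0 higher (median -2.81). The count was 10 without P45, 12 without P50_Depil5D and 10 by DESeq2. They include Sirpa, an inhibitory receptor that marks the type 2 branch, at 10.7, 55.9 and 0 CPM against 79.8, 85.7 and 45.6, and the type 2 factor Irf4 with 2 UMIs in all. Clec10a, a galactose-type lectin, was at 14.3, 27.97 and 0 CPM against 255, 218 and 115 (log2 fold change -4.19 ± 0.53, edgeR FDR 4.79e-13). Ccr2, the receptor that brings monocytes and dendritic cell precursors into tissue, did not follow, at 193, 224 and 130 CPM against 191, 132 and 83.7 (0.18 ± 0.32, edgeR FDR 0.875). Of 14 macrophage genes, 13 were lower (median -3.40, or -3.03 with Folr2 and Trem2, at 0 UMIs, set at their bounds), as were 10 of 10 keratinocyte genes. The gate excludes cells with these classes' markers and the comparison class includes them, so these directions were set at least in part by the choice of cells.

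Early-response genes that rise during tissue digestion were lower in 8 of 18 cases and higher in 0 (median -0.65), among them Ier3 (-3.11), Egr1 (-1.94), Atf3 (-1.49) and Junb (-1.30). Their part in the other differences was not tested. Of 11 T and NK cell genes, 10 were not called and Ctla2a was lower. Their levels varied by library: Cd3g was at 415, 0 and 159 CPM in type 1 cells against 206, 154 and 93.6. Without the doublet candidates the identity list again had 20 of 22 genes higher.

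The type 2 branch was taken as the nearest class, without a measure of distance. It was defined as cells with at least 10 Cd74 UMIs and at least 3 of Cd209a and Mgl2 together, without the other excluded markers (1293 cells). The second comparison set the type 1 cells against these in the same 3 libraries and shares the type 1 cells with the first. Higher genes again included identity and cell cycle genes, here together with langerin, and lower genes included class II genes. Of 3646 genes tested by edgeR, 482 passed (13.2%), 175 higher (4.8%) and 307 lower (8.42%). The name type 2 rests on Cd209a and Mgl2, and no other type 2 marker was asked for. Of 9 macrophage genes tested, 6 were lower in type 1 cells and 0 higher, and of 5 monocyte genes 3 were lower and 0 higher. Of 20 identity genes tested, 18 were higher and 0 lower (median 2.15 against -0.06 over all genes). The count of higher genes was 14 by DESeq2 and 10 of 13 without P45. Both classes were chosen by measured genes, the type 2 cells by genes that the gate kept low. Directions in this comparison were thus set at least in part by the choice of cells and are no independent evidence.

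Cd207, or langerin, the C-type lectin of Langerhans cells and of CD103-bearing dermal dendritic cells, was at 390, 112 and 303 CPM in type 1 cells against 10.7, 3.27 and 78.9 in type 2 cells (log2 fold change 3.59 ± 0.43, edgeR FDR 1.56e-09). It was present in 50 of the 115 cells. Against all other Cd74-high cells it was not called (0.26 ± 0.29, edgeR FDR 0.736), and the 105 cells of that class with UMIs of both Epcam and Cd207 had 2109 CPM of it. Without P45 the call for Cd207 was lost (log2 fold change 2.14, edgeR FDR 0.0911).

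Ifi205 had the largest rise in this comparison as well, at 3.58, 0 and 9.86 CPM in type 2 cells (log2 fold change 5.47 ± 0.43, edgeR FDR 3.47e-15). Cd24a was at 26.4, 18.0 and 16.4 CPM there (3.84 ± 0.34, edgeR FDR 8.98e-14). Zmynd15 rose by 4.62, with 20 UMIs in 8 type 1 cells and 7 of these UMIs in 1 cell. Of 12 class II genes, 8 were lower and H2-Ob was higher. The count of lower genes was 5 of 11 without P45, 3 of 13 without P50, 4 of 12 without P50_Depil5D and 5 of 12 by DESeq2. H2-Ab1 was at 13673, 14180 and 14067 CPM against 18672, 18810 and 20688 (-0.67 ± 0.16, edgeR FDR 0.00196), and H2-Aa and H2-Eb1 were lower too. The named genes that were lower were Ccl17, Pi16, Cd209b, Bcl3, Apod, Lilr4b, Il1rn and Ear2. The first 4 of these had 0 UMIs in type 1 cells and were at least 18.8-fold, 8.32-fold, 6.91-fold and 4.94-fold lower. Ccl17 and Pi16 were not called by DESeq2, and Cd209b and Bcl3 were not called without P45.

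Receptors for chemokines and growth factors were mostly not called against other Cd74-high cells. Of 19 tested, 1 was higher and 3 were lower, beside 3.35% and 6.62% of all genes tested. The higher one was Cxcr3, the receptor for interferon-induced chemokines, at 39.3, 55.9 and 14.4 CPM against 5.07, 0.732 and 1.66 (log2 fold change 3.13 ± 0.50, edgeR FDR 1.02e-06), from 14 UMIs in 12 cells. The lower ones were Csf1r, Cx3cr1 and Csf2rb. Flt3, the receptor whose ligand expands dendritic cells, was at 64.4, 0 and 86.5 CPM against 44.7, 21.2 and 17.4 and was not called (0.73 ± 0.48, edgeR FDR 0.445). Of 7 pattern recognition genes tested, Tlr2 and Cd14 were lower. Xcl1, the ligand of XCR1, was called higher (1.18 ± 0.38, edgeR FDR 0.0219), but all 106 of its UMIs in type 1 cells were in P45 and 83 of them in 1 cell. In cells with at least 3 Cd3 UMIs and under 5 of Cd74, Xcl1 was at 748 to 2565 CPM over the 5 libraries.

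Of 14 maturation genes tested, 3 were higher, 3 lower and 8 not called against other Cd74-high cells. Over all genes tested, 3.35% were higher and 6.62% lower. Some of the maturation calls came from few cells. At least 1 UMI of Ccr7, the receptor for lymph node homing, was found in 5 of the 115 cells (3 in P45, 1 in P50 and 1 in P50_Depil5D), which is too few to test. These 5 cells had 2313 CPM of Fscn1, an actin-bundling protein of mature dendritic cells, against 10.7 in the other 110. Ccl22 was at 2500 CPM against 13.4, Il4i1 at 500 against 5.34, and the T cell chemokine Ccl5 at 7189 against 120. Most UMIs of several of these genes came from 1 cell, with 27 of 45 for Ccl22 and 22 of 41 for Fscn1.

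The same 5 cells had fewer identity gene UMIs in sum, but not of every identity gene. Naaa gave 1 UMI (62.5 CPM, exact 95% Poisson interval 1.58 to 348) against 1202 CPM in the Ccr7-negative cells. The 20 cells outside the gate with at least 3 UMIs of Ccr7 and Ccl22 together, called mature here, had 54.9 CPM (11.3 to 160). Id2 stood at 567 CPM (385 to 805) in these mature cells. Within the gate it went the other way from Naaa, at 1250 CPM (764 to 1931) in the 5 cells and 612 (535 to 696) in the other 110. Identity gene UMIs per 10000 were 20.6 against 54.4, a ratio of 0.379 (exact 95% interval 0.260 to 0.534, counting error only). Without the doublet candidates the ratio was 0.192, from 3 cells. Ccl17 was at 1464 CPM in the mature cells outside the gate and at 0 in the 5 cells, where a count of 0 allows up to 231 CPM. For Ccl5, 115 of 160 UMIs in type 1 cells were in these 5, and without them its difference from other Cd74-high cells was no longer called (log2 fold change 0.75 in place of 3.08, edgeR FDR 0.29).

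Part of the cell cycle list was higher in type 1 cells. Of 22 genes tested against other Cd74-high cells, 9 were higher and 0 lower (median 1.17), and against type 2 cells 8 of 17 were higher and 0 lower. Rrm2, a ribonucleotide reductase chain, was at 39.3, 83.9 and 86.5 CPM against 10.2, 18.3 and 7.46 (log2 fold change 2.21 ± 0.50, edgeR FDR 3.18e-04). Hmgb2, a chromatin protein high in dividing cells, was at 719, 2210 and 533 CPM against 311, 346 and 247 (1.46 ± 0.23, edgeR FDR 2.95e-08), and Stmn1, a microtubule regulator, at 229, 587 and 173 against 102, 127 and 75.4 (1.31 ± 0.30, edgeR FDR 3.25e-04). For these 3 genes the groups did not overlap, again without the share over all genes tested. The proliferation marker Mki67 passed (1.81, edgeR FDR 0.00687) with 0 UMIs in P50_Depil5D. The count of 9 was 3 by DESeq2, 4 without P45, 5 without P50 and 6 without P50_Depil5D, and 15 of 21 without the doublet candidates. The count of 8 was 3 of 14 without P45, 4 of 14 without P50 and 3 of 17 by DESeq2.

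Counted by cell at 1000 UMIs each, at least 1 UMI of 11 core genes (Mki67, Top2a, Cdk1, Birc5, Ube2c, Tyms, Rrm2, Tk1, Ccna2, Ccnb1 and Ccnb2) was found in 23 of 113 type 1 cells (20.4%, exact 95% binomial interval 13.4 to 29.0). The share was 6.15% of 2454 other Cd74-high cells and 6.03% of 1260 type 2 cells. By library it was 14 of 75 cells in P45 (18.7%), 5 of 10 in P50 (50%) and 4 of 25 in P50_Depil5D (16%), against 5.82%, 9.18% and 3.86% of other Cd74-high cells. Type 1 cells had the higher share in each of these 3 libraries, and none of the 3 cells of P63 and P80 that were deep enough had such a UMI. In all UMIs, at least 2 of these genes' UMIs were found in 19 of 115 type 1 cells (16.5%) and 160 of 2601 other Cd74-high cells (6.15%).

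**Figure D3:**
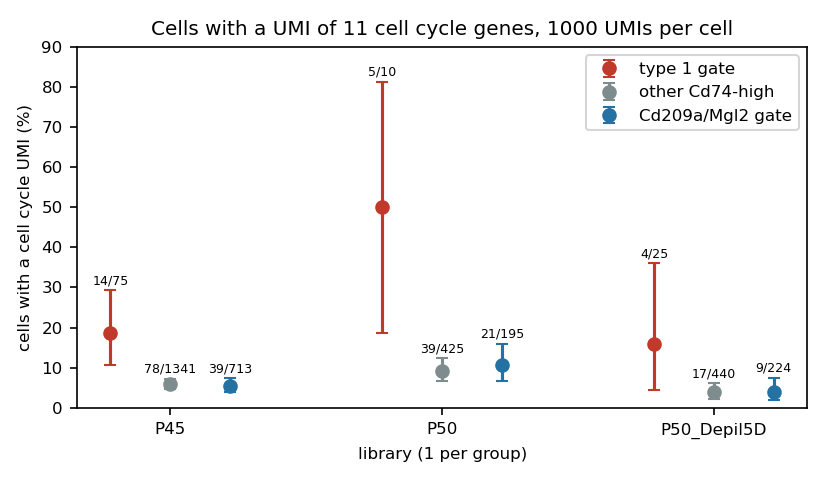
Share of cells with at least 1 UMI of 11 cell cycle genes, after thinning each cell to 1000 UMIs, in the 3 libraries with at least 10 type 1 cells; bars are exact 95% binomial intervals and the numbers are cells with a UMI over all cells. Type 1 cells (18.7%, 50% and 16%) lie above both comparison classes in each library, with wide intervals.

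The gate admits cells by Xcr1 or Clec9a (74 cells) and by Irf8 alone (41 cells), and P45 was the only library with at least 10 of each (51 and 24), so the arms were compared there without a test. Identity gene UMIs per 10000 were 61.4 in the Xcr1 or Clec9a arm and 47.9 in the Irf8-only arm, a ratio of 1.28 (exact 95% interval 1.15 to 1.44, counting error only). Over all libraries pooled the ratio was 1.28 as well. Some genes were nearly level, such as Rab7b, a late endosomal GTPase, at 264 and 276 CPM, Ifi205 at 217 and 199, and Naaa at 1268 (1113 to 1439) and 1072 (870 to 1308). Others were lower in the Irf8-only arm, with intervals that do not overlap. Id2 was at 782 CPM (661 to 918) and 376 (260 to 525), and Cd24a at 460 (368 to 567) and 232 (144 to 355). At least 3 identity genes were detected in 70 of 74 cells of the first arm over all libraries (94.6%) and 37 of 41 of the second (90.2%). Restricted to the Xcr1 or Clec9a arm, with a minimum of 4 cells, the identity list had 18 of 21 genes higher than in other Cd74-high cells.

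**Figure D4:**
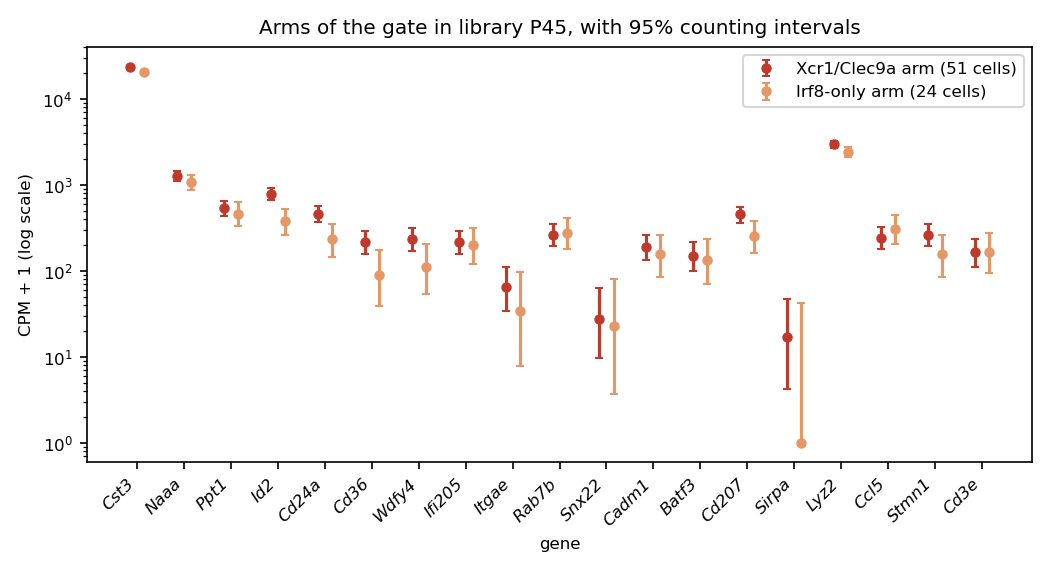
Levels of 19 genes in the 2 arms of the gate in library P45, in CPM + 1 on a log axis, with exact 95% Poisson intervals for counting error. The intervals of Naaa, Rab7b and Ifi205 overlap between the arms, while those of Id2 and Cd24a do not.

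The share of type 1 cells among all cells with at least 10 Cd74 UMIs or in the gate was 5.30% in P45 (75 of 1416, exact 95% binomial interval 4.19 to 6.59) and 5.04% in P50_Depil5D (25 of 496, 3.29 to 7.35). It was 2.23% in P50 (11 of 494, 1.12 to 3.95), 1.82% in P63 (3 of 165, 0.377 to 5.22) and 0.690% in P80 (1 of 145, 0.0175 to 3.78). The order of the undepilated libraries ran down with age, but the intervals of P50, P63 and P80 overlap. That order was lost under other settings: thinned, P50 stood at 1.43% and P63 at 1.91%, without shared barcodes at 2.41% and 2.48%, and in the Xcr1 or Clec9a arm at 0.810% and 1.21%. The share in P50 was 0.420 of that in P45 (0.201 to 0.796), with 1 inside the interval after thinning (0.579, 0.198 to 1.40). The interval also held 1, narrowly, with type 1 and type 2 cells together as denominator (0.530, 0.254 to 1.004). The share in P80 was 0.130 of that in P45 (exact 95% interval 0.00325 to 0.748), from 1 cell. This interval reached past 1 when each cell was thinned to 1000 UMIs (0.476, 0.0117 to 2.84) and without cells with a shared barcode (0.224, 0.00560 to 1.29). It also did so for cells with at least 500 genes, for the Xcr1 or Clec9a arm, and when type 1 and type 2 cells together were the denominator.

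The share in P50_Depil5D was 2.26 times that in P50 (exact 95% interval 1.07 to 5.10, counting error only). The interval included 1 when cells were thinned (2.16, 0.779 to 6.85) and without the cells low in pseudogene UMIs (1.91, 0.880 to 4.38). It also included 1 with type 1 and type 2 cells together as denominator (1.90, 0.901 to 4.27). In the Xcr1 or Clec9a arm alone the ratio was 3.98 (1.28 to 16.4), from 16 and 4 cells. Against P45 the ratio was 0.952 (0.580 to 1.51), and 0.478 (0.291 to 0.760) with all cells kept as denominator. The type 2 share was 41.9% in P50 and 47.6% in P50_Depil5D, a ratio of 1.14 (0.938 to 1.38). Cells with at least 5 C1q UMIs, which enter the denominator, were 13.4% and 5.44%. Their part in the ratio was not tested. A lower share can come from fewer type 1 cells or from more of the others.

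**Figure D5:**
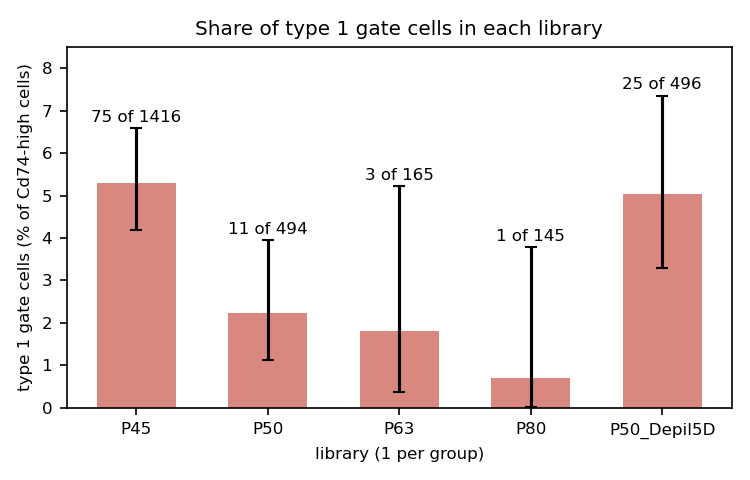
Type 1 cells as a percentage of Cd74-high cells in each of the 5 libraries, with exact 95% binomial intervals for counting error and the cell counts above. P45 and P50_Depil5D stand near 5%, and P50, P63 and P80 at 2.23%, 1.82% and 0.690%, the last from 1 cell.

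Within the type 1 cells, levels were set side by side for P50 and P50_Depil5D, with 11 and 25 cells and no test. With 50 CPM added to both values, 127 of 1009 genes with a mean of at least 100 CPM (12.6%) were past 2-fold, 44 higher in P50_Depil5D (4.36%) and 83 lower (8.23%). TMM scaling, which moved the median of all genes from -0.06 to 0.20, turned this split to 101 higher and 59 lower. Identity genes had 0 of 11 past 2-fold and a median log2 ratio of -0.05 beside -0.06 over all genes. Of 9 cell cycle genes, 7 were past 2-fold lower and 0 higher in the depilated library (median -1.49, and again 7 of 9 with TMM scaling, median -1.37). Hmgb2 was at 533 CPM (exact 95% Poisson interval 376 to 735) in P50_Depil5D and 2210 (1749 to 2754) in P50, and Tubb5, a beta-tubulin, at 591 (424 to 802) and 1594 (1207 to 2066). P45 stood with the depilated library, at 719 CPM of Hmgb2 and 672 of Tubb5, so that P50, with 11 cells, was the high library of the 3 for both genes.

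By the naming rule the 5 genes highest in P50_Depil5D over P50 were Ccr7, Lyz1, Irf7, Dnase1l3 and Cdk2ap2, and the 5 lowest were Cnot3, Tubb2a, Tbc1d4, H2-M2 and Apol7c. Each has 0 to 2 UMIs on one side. All 26 Ccr7 UMIs of P50_Depil5D came from 1 cell, and 19 of the 25 UMIs of Irf7, the interferon regulatory factor of the antiviral response, from 1 cell too. H2-M2 had 8 UMIs in P50, all in 1 cell, and none in P50_Depil5D. Of the 17 Apol7c UMIs in type 1 cells, 12 lay in 1 cell. Single cells thus gave most UMIs of 4 of these 10 genes. P63 and P80, with 3 and 1 type 1 cells, gave too few UMIs for ratios, and in the 1 cell of P80 a single UMI equals 428 CPM.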

How the data were processed

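Live CD45+ dermal cells of C57BL/6 mice were profiled in 5 libraries with 10x Genomics 3' droplet chemistry. The deposited values are whole-number UMI counts per gene and cell. Per the submitters' processing notes the build was mm10, and Seurat is named without a role. How reads were aligned and counted, and how barcodes were called as cells, is not stated by those notes. Of 27998 gene identifiers, 27645 matched GENCODE vM21, which gave coordinates, and 3 of the symbols asked for (Ppap2a, Jaml, Clec6a) were missing.

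Of 6223 barcodes, 6162 passed a minimum of 200 genes and a maximum of 10% mitochondrial UMIs. Doublets were left in, and an alternative leaves out cells marked by Scrublet (scanpy 1.11.5) or with at least 2 Cd3d, Cd3e and Cd3g UMIs in all classes. UMIs were summed per library and class. Classes with at least 10 cells in a library were tested with edgeR 4.0.16 (quasi-likelihood, TMM, filterByExpr, library as block, Benjamini-Hochberg FDR of 0.05), under R 4.3.3, and 3 libraries qualified. Each FDR in the text is edgeR's unless DESeq2 (1.42.0) is named. Each SE is the absolute log2 fold change over the square root of the test's F statistic, not an error observed between libraries. The 12 gate genes stayed in library sizes and out of the tests. The test was also run on simulated counts, with no result given here. These were drawn per library and class, so they could not show the effect of single cells that hold most UMIs of a gene. Intervals are exact 95% Poisson, binomial or conditional and cover counting error only. Genes with 0 UMIs are bounded by a floor of 3 counts. Thinning used 1000 UMIs per cell and left out shallower cells (P50 285, P63 9, P80 189 and P50_Depil5D 170), 2 of them type 1 cells.

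Named genes were the 12 highest and 8 lowest called log2 fold changes with at least 50 CPM and the same direction in all libraries, and for library ratios the 5 highest and 5 lowest with at least 100 CPM. Arms and Ccr7-positive cells had too few libraries for the planned tests, so values only are given. For P80 over P45 no genes are named, since P80 held 1 type 1 cell. The members and gene lists were chosen with earlier results of these data known. The labels do not say whether libraries came from separate animals.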

Additional observations from a re-analysis of the deposited data

How the results depend on the processing

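No gene named in the tested comparisons changed direction under the alternatives that could be fitted. Of the 536 genes called against other Cd74-high cells, 534 kept their sign by DESeq2. Under TMM scaling the split of genes past 2-fold between P50_Depil5D and P50 turned from 44 higher and 83 lower to 101 and 59. The share in P50_Depil5D over P45, 0.952, was 1.25 after thinning and 1.09 for cells with at least 500 genes. The count of genes called against other Cd74-high cells (536) was 217 by DESeq2, 337 in the Xcr1 or Clec9a arm with a minimum of 4 cells, 309 with all 5 libraries and no cell minimum, and 272 to 462 when a library was left out (309 without P45, 272 without P50_Depil5D). Against Cd209a/Mgl2 cells (482) it was 219 by DESeq2, 314 without the library block, 294 in that arm, 246 with all 5 libraries, and 153 to 398 with a library left out (153 without P45, 259 without P50). The planned restriction to that arm left 2 libraries with at least 10 cells and was not run as a test. The version with 4 cells was chosen after seeing the data. So were the settings with all 5 libraries, without Ccr7-positive cells, without cells low in pseudogene UMIs and with type 1 and type 2 cells together as denominator. The Ccr7 ratio of identity UMIs was 0.192 without the doublet candidates. The share of genes past 2-fold between P50_Depil5D and P50 (12.6%) was 19.2% with 10 CPM added, 15.9% with TMM scaling and 25.7% in the Xcr1 or Clec9a arm. The 20 genes named against other Cd74-high cells kept their call by DESeq2, RLE normalization, no filter and no block. The classes were paired within libraries by the library block of the main design. No paired analysis was possible between the groups because each has 1 library and the labels carry no replicate numbers. Depth limits P63 and P80, with 3280 and 2336 UMIs in type 1 cells.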

Other observations

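Among the type 1 cells, 6 of the 10 with an Xcl1 UMI also had a UMI of Cd3d, Cd3e or Cd3g, and 24 of the 115 had such a Cd3 UMI.

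Fibroblast genes were not called against other Cd74-high cells (0 of 5 tested). In type 1 cells 24 of the 32 UMIs of Col1a1 and 20 of the 29 of Col1a2 lay in 1 cell each, and both genes were at 0 in P50 and P50_Depil5D.

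Cd36, a scavenger receptor that binds dead cells, was higher in type 1 cells than in Cd209a/Mgl2 cells (log2 fold change 3.11 ± 0.45, edgeR FDR 2.11e-07), with 175, 27.97 and 43.2 CPM against 17.5, 8.18 and 3.29. Of its 54 UMIs in 29 type 1 cells, 23 lay in 1 cell. Against other Cd74-high cells the classes overlapped, at 41.3, 33.0 and 7.46 CPM in the comparison class.

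Rpgrip1, a gene on the plasmacytoid dendritic cell list, was higher in type 1 cells at 53.6, 112 and 72.1 CPM against 19.6, 16.8 and 21.5 (log2 fold change 1.60 ± 0.47, edgeR FDR 0.0109), while Tcf4 and Ly6d of that list were lower.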
